A study of Mus musculus with 3 samples.

Results

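The AP-1 subunit genes encode the Fos proteins (Fos, Fosb, Fosl1 and Fosl2) and the Jun proteins (Jun, Junb and Jund), 7 genes of the 22367 protein-coding genes on the assembled mouse chromosomes. They were chosen as the genes of the Fos and Jun families, and every TFAP2A peak with its summit in the gene body or within 100 kb of it was taken, which gave 40 of 18528 peaks in replicate 1 and 36 of 21459 in replicate 2. The peaks came from chromatin immunoprecipitation and sequencing (ChIP-seq) of TFAP2A with the antibody AP-2alpha (3B5). TFAP2A is a transcription factor expressed in many tissues, melanocytes among them. The series held 3 samples, namely 2 ChIP replicates from independent experiments and 1 input that was not analysed here. All samples were melan-a cells, a single immortalised melanocyte line from normal embryonic skin with the genotype Cdkn2a tm1RDp/tm1RDp. The cells received no treatment, but their medium held 200 nM 12-O-tetradecanoylphorbol 13-acetate, a phorbol ester, and 200 pM cholera toxin in every sample. Phorbol esters activate protein kinase C and are well known inducers of AP-1 genes, and no culture without them was measured. The series holds no expression values, so the melanocyte label was not checked against marker levels here, and peaks were not compared with the transcription of the genes.

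AP-1 is a dimeric transcription factor. Fos proteins bind DNA only with a partner, usually a Jun protein, whereas Jun proteins can also pair with each other, and the dimers recognise the sequence TGAGTCA or its reverse complement TGACTCA. Fos, Fosb, Jun and Junb are immediate early genes that mitogens switch on through MAP kinases, Jund is expressed more evenly, and Fosl1 and Fosl2 follow with a delay. TFAP2A, despite the similar name AP-2, belongs to another family and binds GCCNNNGG.

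The sequences below are 101 bases of the plus strand of mm9, centred on the replicate 1 summit, with each match to GCCNNNGG on either strand in capitals. They are shown because they lie under promoter peaks of Fos, Fosl2 and Junb and under the strongest distal peaks of Fos, Fosb, Jun and Jund. The Junb promoter peak at -33 bp, which had no match in such a window, is not shown, nor is the Jund promoter peak. Positions are counted from the 5′ end of the gene along its own strand, so negative values lie upstream.
Junb -2.5 kb, promoter, chr8:87505076-87505176: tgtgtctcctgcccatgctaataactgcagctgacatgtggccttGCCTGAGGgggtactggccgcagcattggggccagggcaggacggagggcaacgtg
Junb -1.1 kb, promoter, chr8:87503695-87503795: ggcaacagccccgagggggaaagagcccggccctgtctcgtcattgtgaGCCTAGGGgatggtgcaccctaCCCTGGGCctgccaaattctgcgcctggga
Fos -1.4 kb, promoter, chr12:86813341-86813441: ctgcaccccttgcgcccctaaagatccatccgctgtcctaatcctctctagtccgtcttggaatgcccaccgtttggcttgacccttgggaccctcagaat
Fosl2 -2.5 kb, promoter, chr5:32436297-32436397: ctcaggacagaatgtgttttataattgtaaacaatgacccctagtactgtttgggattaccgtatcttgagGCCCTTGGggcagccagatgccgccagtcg
Fos 23.9 kb, distal, chr12:86838662-86838762: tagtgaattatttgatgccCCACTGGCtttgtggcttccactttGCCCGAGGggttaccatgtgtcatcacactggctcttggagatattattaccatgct
Jund -18.4 kb, distal, chr8:73203153-73203253: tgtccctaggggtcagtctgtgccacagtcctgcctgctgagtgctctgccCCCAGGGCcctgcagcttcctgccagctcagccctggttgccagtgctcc
Jun -53.9 kb, distal, chr4:94772725-94772825: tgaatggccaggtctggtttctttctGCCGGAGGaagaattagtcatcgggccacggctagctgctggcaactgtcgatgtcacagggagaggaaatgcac
Fosb 8.9 kb, distal, chr7:19886394-19886494: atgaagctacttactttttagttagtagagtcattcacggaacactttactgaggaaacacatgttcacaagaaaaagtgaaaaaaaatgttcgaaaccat
Both Junb windows shown and the Fos 23.9 kb and Jund -18.4 kb windows hold a match within 10 bases of the replicate 1 summit. The Fos promoter and Fosb windows hold none.

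TFAP2A peaks were found within the promoters of 4 of the 7 genes (Fos, Fosl2, Junb and Jund) and at none of the promoters of Fosb, Fosl1 and Jun. Promoters were taken to begin 5 kb before and end 1 kb after each annotated transcription start site (TSS) of a gene, and a peak was called shared when the peaks of both replicates overlapped by at least 1 bp. The same 4 genes, with the same number of promoter peaks, were found in replicate 1, in replicate 2 and among the shared peaks. Over all protein-coding genes, 18.6% had a promoter peak in replicate 1, 20.9% in replicate 2 and 17.0% a shared one. Within 100 kb all 7 genes had a peak in both lists, where 74.2% of genes did in replicate 1, 76.8% in replicate 2 and 71.7% for shared peaks, so this share is near the background. The promoter count of 4 was 2 (Junb and Jund) with promoters cut to 1 kb on both sides of a TSS and 1 (Junb) with the upper 50% of each list by fold. With 1 group of samples the design allowed no test between conditions, and the values are descriptions of 2 libraries whose read depth is unknown. The farthest shared summits inside the windows lay 2.5 to 91.7 kb from the gene bodies, and the nearest ones outside them 107.5 to 151.3 kb away.

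**Figure D1:**
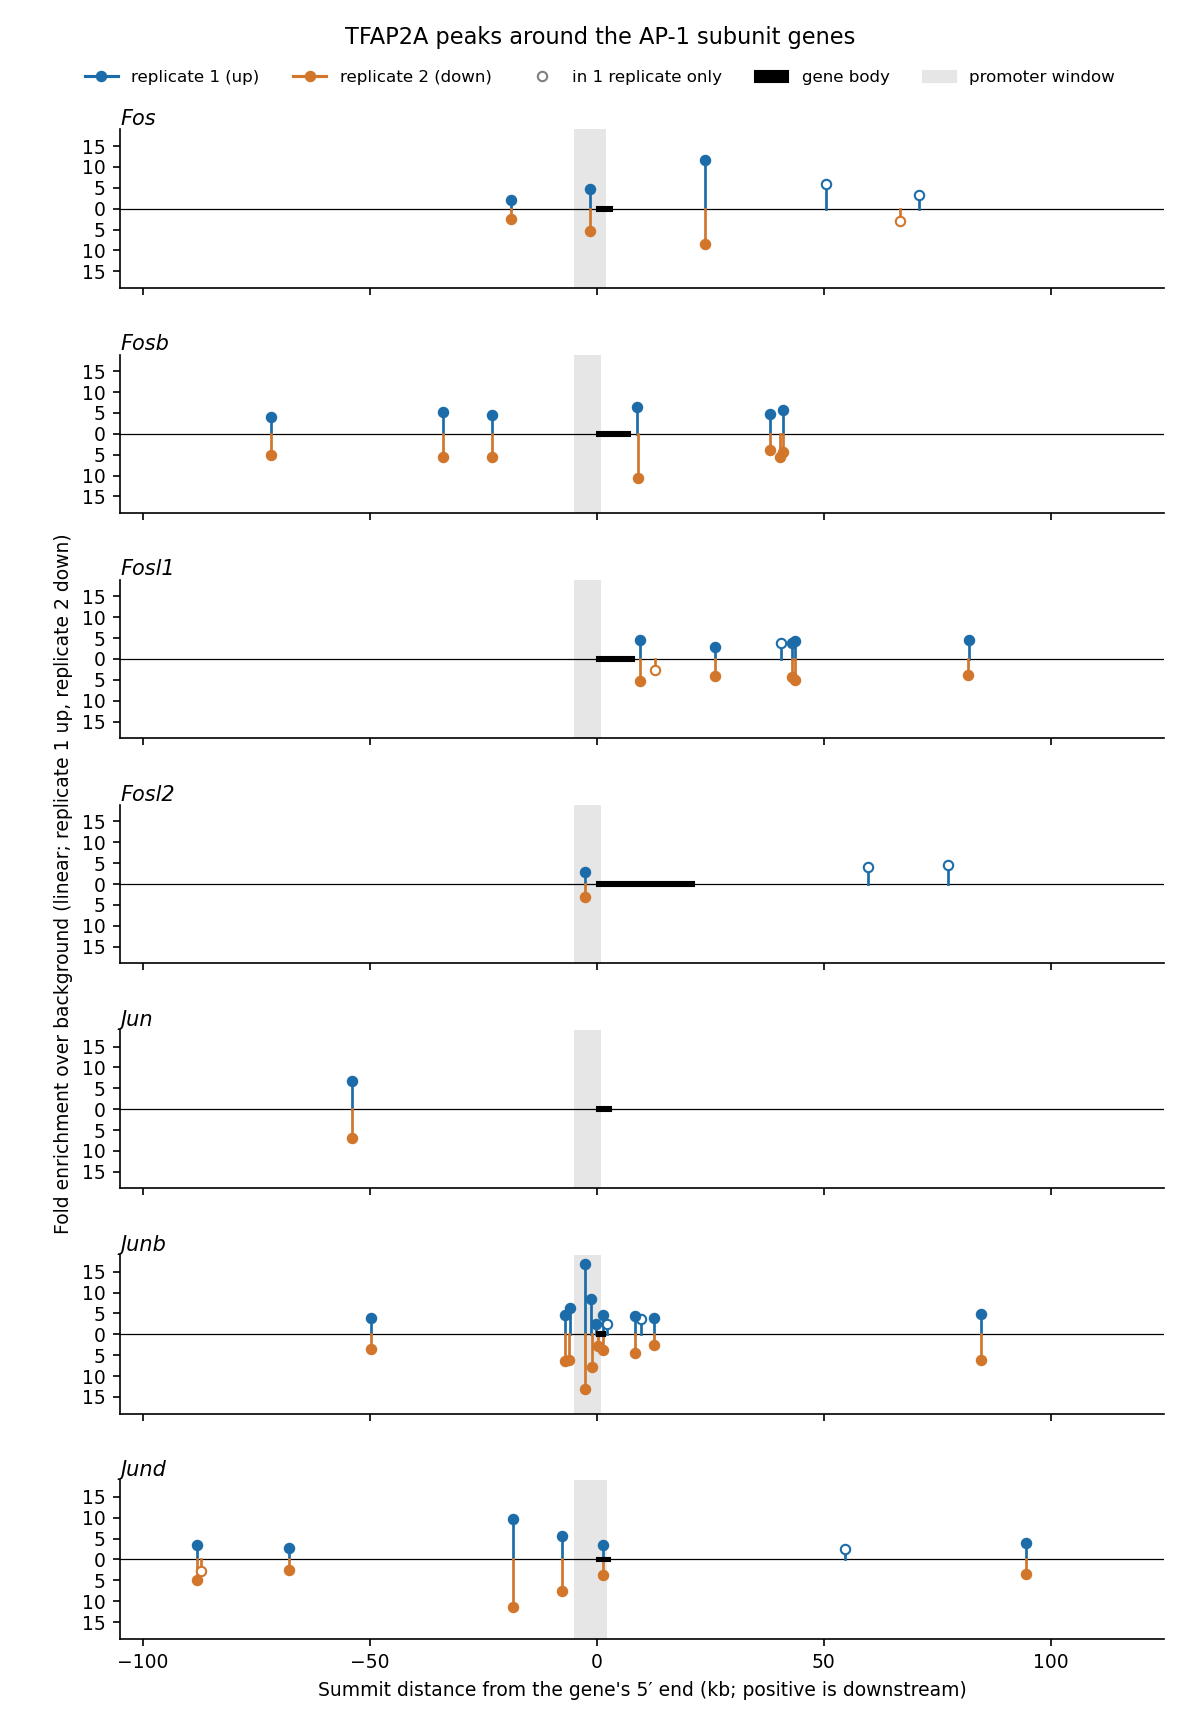
TFAP2A peaks around each AP-1 subunit gene, with the distance of the summit from the 5′ end of the gene on the x axis (kb) and the fold enrichment over background on the y axis (linear), replicate 1 upwards and replicate 2 downwards. Filled points are shared peaks, open points are peaks in 1 replicate only, and Junb has 10 shared peaks where Jun and Fosl2 have 1 each.

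Junb, an immediate early gene whose protein is the Jun partner in many AP-1 dimers, had the most peaks. The gene lies at chr8:87500811-87502617 on the minus strand and had 12 peaks in its window in replicate 1, 10 in replicate 2 and 10 shared, against a median of 2 shared peaks per gene (quartiles 0 and 4). As many as 10 shared peaks were found for 2.56% of genes. The Junb window also held 14 other protein-coding genes, against a median of 4 over all genes.

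The promoter of Junb held 3 shared peaks, a number reached or passed by 0.572% of genes. The upstream one, with its summit at -2509 bp in replicate 1 and -2502 bp in replicate 2, had a fold enrichment over background of 16.9 in replicate 1 and 13.2 in replicate 2 (15.0 ± 2.62, SD, n = 2). This was the strongest shared peak of all 7 windows, and 2.96% of the shared promoter peaks of all genes were at least as high. The next, at -1128 and -1098 bp, had folds of 8.42 and 7.74 (8.08 ± 0.480). The one at the TSS was weak, with folds of 2.40 and 2.86 (2.63 ± 0.321) near the lower end of the lists, where the lowest folds were 2.01 and 2.00. Its summits lay at -33 bp and 236 bp, 269 bp apart, so that the replicates placed it on different sides of the TSS.

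None of the other shared peaks near Junb reached the median mean fold of 6.22 over all shared peaks. The peak in the single exon of Junb, at 1441 bp, had folds of 4.59 and 3.84. The intergenic peak at -5967 bp had folds of 6.21 and 6.07, and the one at -6946 bp, which also lies in the promoter window of Hook2, had 4.70 and 6.33. The peak at 8489 bp lay at the TSS of Prdx2, which encodes a peroxiredoxin, with folds of 4.34 and 4.35. A peak at 2222 bp with a fold of 2.59 and one at 9860 bp with 3.56 were in replicate 1 only. In all, 7 shared summits lay within 10 kb of the Junb 5′ end, and no other protein-coding gene had as many (1 of 22367 genes, 0.00447%). The span was chosen after these positions had been seen, and the number 7 is that of Junb itself, so this rank is a description and its value rests partly on that choice. With 5 kb to each side Junb had 4 summits and 0.103% of genes had at least as many, with 20 kb it had 8 and 0.0224%, and with 50 kb it had 9 and 0.237%.

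**Figure D2:**
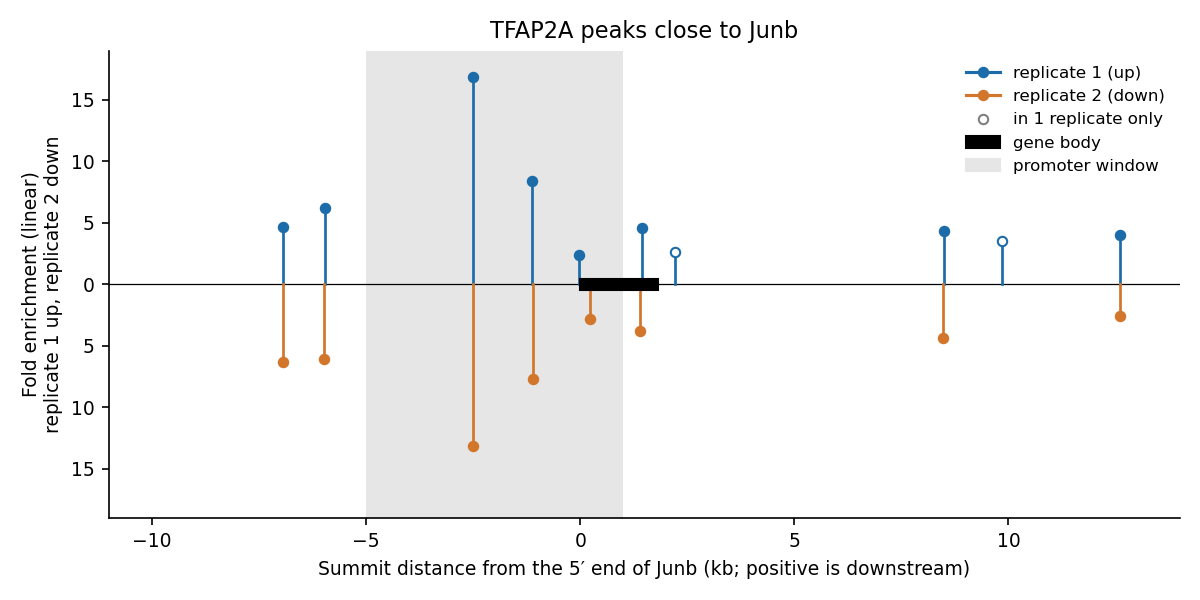
Peaks close to Junb, with the distance of the summit from its 5′ end on the x axis (kb) and the fold enrichment on the y axis (linear), replicate 1 upwards and replicate 2 downwards. The peak at -2.5 kb stands above the others in both replicates, at 16.9 and 13.2, and the peak at the TSS is the lowest shared promoter peak, at 2.40 and 2.86.

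Fos, the founding member of the family, lies at chr12:86814840-86818223 on the plus strand and had 5 peaks in replicate 1, 4 in replicate 2 and 3 shared. Its promoter peak, at -1449 and -1475 bp, had folds of 4.80 and 5.34 (5.07 ± 0.379), close to the median of 5.23 for shared promoter peaks of all genes. The strongest Fos peak was distal, in intergenic sequence at 23872 and 23865 bp, with folds of 11.6 and 8.38 (9.97 ± 2.25). For all 3 shared peaks the nearest protein-coding TSS was that of Fos, and at 23.9 kb the nearest TSS of another gene was that of Jdp2, itself an AP-1 dimer partner. The remaining shared peak, at -18751 bp, had folds of 2.13 and 2.53, near the lower end of the lists.

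Fosl2, whose protein lacks the strong activation domain of Fos, lies at chr5:32438845-32460204 on the plus strand and had 3 peaks in replicate 1 and 1 in replicate 2. The shared one lay at -2498 and -2458 bp with folds of 2.93 and 3.00 (2.96 ± 0.0519), and 95.7% of shared promoter peaks were at least as high. It is also a promoter peak of Gm10463, whose TSS is nearer (the summit at -806 bp from it), so it cannot be assigned to Fosl2 from position alone. Both other Fosl2 peaks, with folds of 4.18 and 4.58 at 59.8 and 77.4 kb, were in replicate 1 only.

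Jund, at chr8:73221638-73224515 on the plus strand, had 7 peaks in each replicate and 6 shared. Its promoter peak, at 1394 and 1312 bp, had folds of 3.42 and 3.78 (3.60 ± 0.254). The summits lay in the transcribed part of Jund and were counted as promoter through a second annotated TSS at 1219 bp. In replicate 1 the summit also lay in the promoter window of Gm11175, at 947 bp from its TSS. The second Jund TSS was nearer, at 175 bp. With the 5′ end of the gene alone, Jund had no promoter peak and 3 of the 7 genes did. The strongest Jund peaks were upstream, at -18435 bp with folds of 9.77 and 11.4 (10.6 ± 1.15) and at -7570 bp with 5.69 and 7.64 (6.67 ± 1.38). The first of these had a nearer TSS, that of Lsm4, at 1639 bp, whereas for the second Jund was the nearest.

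Jun, Fosb and Fosl1 had distal peaks alone. Jun, the main partner of Fos, lies at chr4:94715725-94718913 on the minus strand, and its window held 1 peak in each replicate, at -53862 and -53842 bp, with folds of 6.65 and 6.89 (6.77 ± 0.168). This peak lay in the body of BC042782, a transcript not annotated as protein-coding, and Jun had the nearest protein-coding TSS. Of all genes, 43.9% had their nearest shared summit farther away than Jun did.

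Fosb, at chr7:19888070-19895394 on the minus strand, had 6 peaks in replicate 1, 7 in replicate 2 and 6 shared. The protein is known from stimulated neurons. The replicate 1 peak at 41004 bp overlapped more than 1 replicate 2 peak, and no Fosb peak was in 1 replicate only. The strongest peak, downstream of the gene in the promoter of the noncoding gene Gm17589, at 8950 and 9049 bp, had folds of 6.37 and 10.7 (8.52 ± 3.05). The replicate 2 value was 1.68 times that of replicate 1, the largest ratio among the shared peaks of the 7 windows. Of the 6 shared peaks, 4 lay in promoters of other annotated genes, among them Vasp (4.73 and 3.94), Ercc1 (5.34 and 5.56) and Ercc2 (4.04 and 5.08).

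Fosl1, at chr19:5447703-5455945 on the plus strand, had 6 peaks in each replicate and 5 shared. Its product is linked to cell motility. The strongest peak, at 9649 bp, had folds of 4.63 and 5.22 (4.93 ± 0.421) and lay within 1 kb of the TSS of Ccdc85b, at 197 bp. In 4 of the 5 cases the shared peak was in the promoter of another gene, and in none was Fosl1 the nearest TSS. The Fosl1 window held 15 other protein-coding genes.

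**Figure D3:**
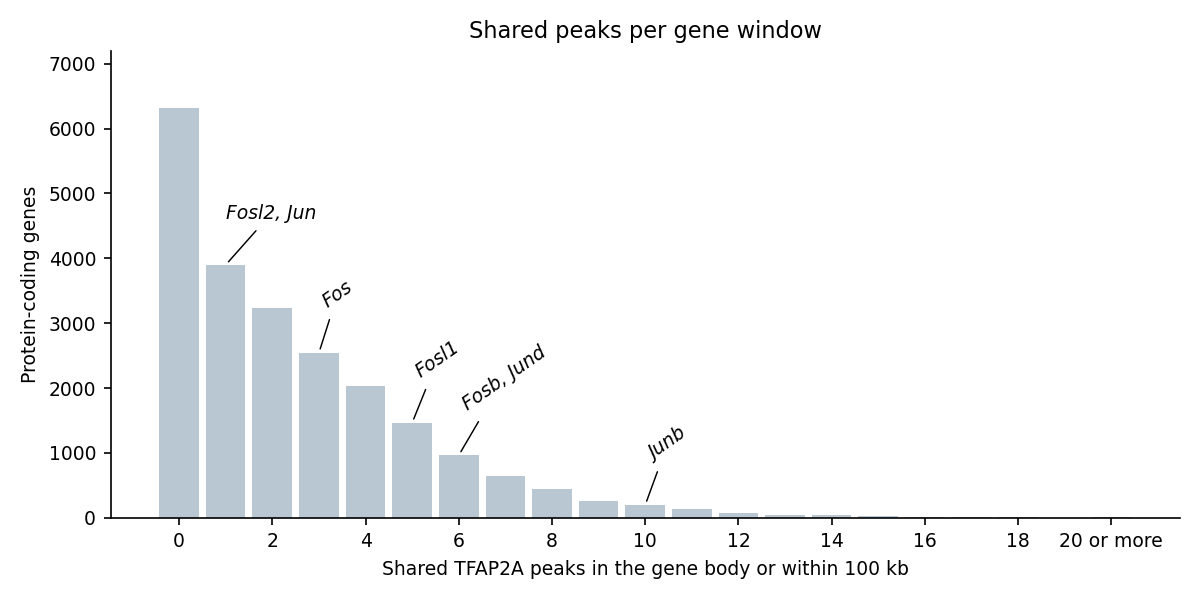
Number of protein-coding genes (y axis) by the number of shared TFAP2A peaks in the gene body or within 100 kb (x axis). Fosl2 and Jun have 1 shared peak, Fos 3, Fosl1 5, Fosb and Jund 6 and Junb 10, beside a median of 2.

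Most distal peaks of the AP-1 windows lay at other genes. Of the 32 shared peaks, 6 were in a promoter of the AP-1 gene itself, 15 in the promoter of another gene, 1 in the body of the AP-1 gene, 3 in the body of another gene and 7 between genes. In all, 21 of 32 (65.6%) lay in a promoter of some gene, against 28.8% of the 16099 shared peaks on assembled chromosomes. The 32 were selected by their position near genes, which fixes part of this gap, and among the 14869 shared peaks within 100 kb of any protein-coding gene the share was 31.0%. The AP-1 gene had the nearest protein-coding TSS for 11 of the 32. The windows of Fosb, Fosl1, Junb and Jund held 10 to 15 other genes each, whereas those of Fos, Fosl2 and Jun held 1 or 2. Over all genes, the number of other genes and of shared peaks in a window had a Spearman correlation of 0.19, in windows that overlap each other. Whether gene density sets the peak counts was not tested.

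Promoter and distal peaks overlapped in height. The 6 shared promoter peaks had a median mean fold of 4.33 (2.63 to 15.0) and the 26 distal ones 4.58 (2.33 to 10.6). The promoter-to-distal ratio of these medians was 0.946. From the medians of each replicate it was 0.896 in replicate 1 and 0.903 in replicate 2. It passed 1 under some other settings. The distal group includes the 15 peaks in promoters of other genes. With distal peaks outside every promoter the ratio was 0.776 (6 against 11 peaks), and over all genes, shared promoter peaks had a median of 5.23 and shared peaks outside every promoter 6.66.

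The replicates found mostly the same regions in these windows. Of the replicate 1 peaks, 32 of 40 were shared (80%, exact Clopper-Pearson 95% interval 64.4 to 90.9), against 87.1% of all replicate 1 peaks. Of the replicate 2 peaks, 33 of 36 were shared (91.7%, 77.5 to 98.2), against 76.0% of all, and both intervals cover counting error only. At the 32 shared peaks the replicate 2 fold was a median of 1.07 times that of replicate 1 (0.639 to 1.68) and was higher in 20 of them (62.5%), beside a median of 1.05 and a share of 57.9% over all shared peaks. The lowest ratio was that of the peak at 12612 bp from Junb, with folds of 3.99 and 2.55. Shared summits lay a median of 23 bp apart, beside 24 bp for all. The 8 peaks in replicate 1 only had folds from 2.58 to 5.85, the strongest being that of Fos at 50.4 kb, and the 3 in replicate 2 only had folds from 2.70 to 2.86, the strongest being that of Fos at 66.8 kb.

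**Figure D4:**
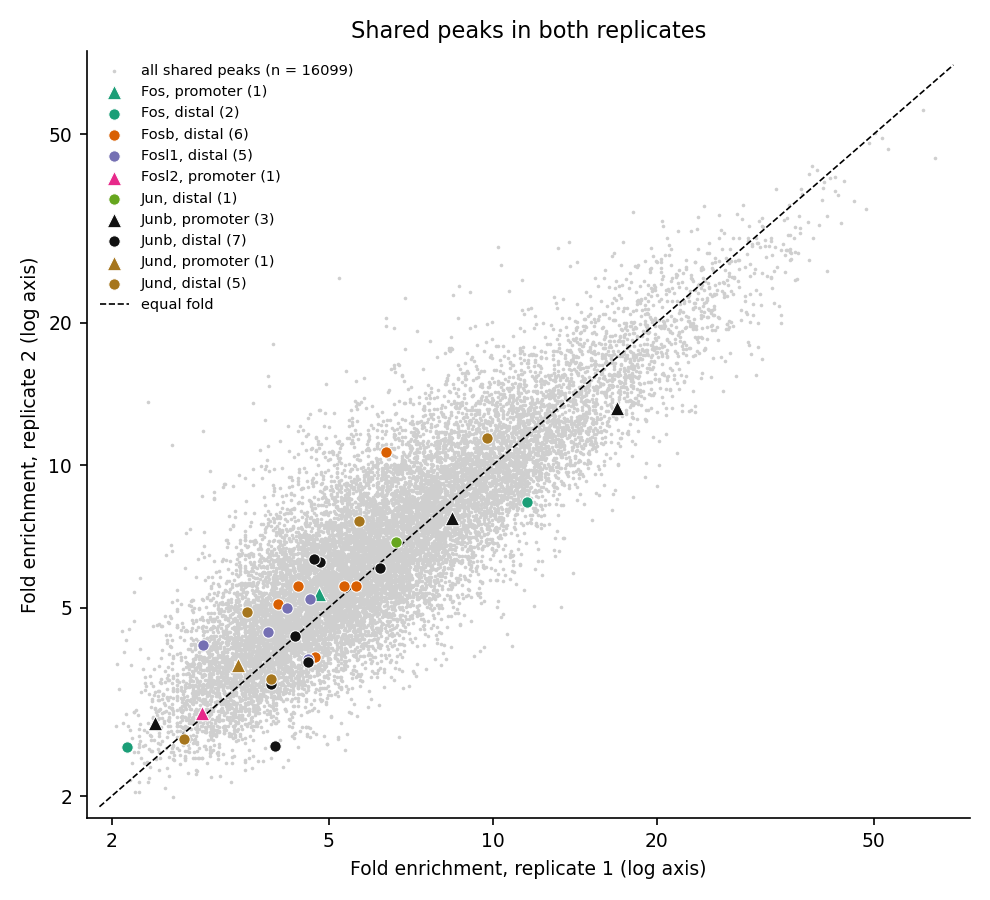
Fold enrichment of shared peaks in replicate 1 (x axis, log) and replicate 2 (y axis, log), with all shared peaks in grey, the AP-1 windows in colour, triangles for promoter and circles for distal peaks, and a dashed line where both are equal. The Junb promoter peak at -2.5 kb is the highest coloured point, at 16.9 and 13.2, and the Fosb peak farthest above the line is at 6.37 and 10.7.

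Matches to GCCNNNGG within 50 bp of the replicate 1 summit were found at 25 of the 32 shared peaks (78.1%, interval 60.03 to 90.7), against 57.1% of all shared peaks and 63.8% of those in promoters. With replicate 2 summits the count was 23 of 32 (71.9%) against 60.1% of all and 67.2% of those in promoters. The control CGGNNNCG, with the same letters in another order, was found at 8 of 32 (25%) against 5.93% of all and 16.5% of those in promoters. The median GC content was 61.9% in these windows and 51.5% over all shared peaks, and its part in the share of matches was not tested. Of the 32 peaks, 19 had the same match within 50 bp of both summits, and 5 had none near either. The replicate 1 peak at 41004 bp from Fosb was paired by largest overlap with a replicate 2 peak at 40432 bp, which had no match. It also overlapped a replicate 2 peak at 41039 bp, which had 2 matches and was not used in this count.

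Matches were found at 4 of the 6 shared promoter peaks with replicate 1 summits and at all 6 with replicate 2 summits. The 4 were those of Fosl2 and Jund and the Junb peaks at -2509 and -1128 bp. The Junb peak at -33 bp had none near the replicate 1 summit. The Jund peak had matches near each summit, but none within 50 bp of both. In Junb the match at -2.5 kb spanned the replicate 1 summit, from 5 bases before it to 2 bases after. The Fos promoter peak had no match within 50 bp of the replicate 1 summit but 2 overlapping ones near that of replicate 2, 26 bp away. The Fosb peak at 8950 bp had none near either summit.

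AP-1 letters (TGAGTCA or TGACTCA) were found within 50 bp of the replicate 1 summit at 2 of the 32 peaks (6.25%), near the 6.36% of all shared peaks. They were the peak at -6946 bp from Junb and the one at 41004 bp from Fosb, in the body of Vasp. With replicate 2 summits the count was also 2 of 32, but the Fosb peak was then the one at -22988 bp, so the Junb peak alone had AP-1 letters near both summits. The Junb window held 2 such matches and no GCCNNNGG within 50 bp of either summit. It is shown on the plus strand of mm9 with the AP-1 letters in capitals.
Junb -6.9 kb, chr8:87509513-87509613: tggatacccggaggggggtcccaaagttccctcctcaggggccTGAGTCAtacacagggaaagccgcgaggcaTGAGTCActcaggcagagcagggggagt
The CRE letters TGACGTCA and the CArG box were found at none of the 32 summits, against 0.217% and 0.354% of all shared peaks.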

How the data were processed

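TFAP2A ChIP-seq peaks of melan-a cells were analysed from 1 list per ChIP replicate, called by the authors on each replicate and not on pooled reads. The submitters' processing notes name BWA, MACS 1.4.2 and mm9 and give no roles or settings. Lists of this format with q-values are usual for later MACS versions, so which version made them, and how it computed fold and q, is uncertain. The deposited lists give a fold enrichment (a ratio over background), the -log10 p, the -log10 q and a score. The deposited score equals 10 times the -log10 p cut to a whole number and was not used. The lowest -log10 p was 5.05 and 5.06, so the lists hold no weaker region. Read depth is unknown, and a difference in peak numbers can come from depth.

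Genes and TSSs came from GENCODE version M1 (NCBIM37, the sequence of mm9), and 0 peaks ran past a chromosome end. Shared peaks were replicate 1 peaks overlapping a replicate 2 peak by at least 1 bp, paired with the largest overlap. Percentages over genes used all 22367 protein-coding genes counted the same way, and no test was run. The named items were all 7 genes, their promoter peaks, the strongest shared distal peak of each and the strongest peak found in 1 replicate only, and peaks outside this rule were picked after their values were seen. The members and lists were chosen with earlier results of these data known. A list of kinases is not reported here. Alternatives were other promoter windows, thresholds, overlaps, windows of 50 kb, measures, motifs and each replicate alone. Python 3.11.15, numpy 2.4.6, pandas 2.3.3 and scipy 1.17.1 were used, and the scripts were tested on simulated data.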

Additional observations from a re-analysis of the deposited data

How the results depend on the processing

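Of 39 alternatives, 25 stayed close to the value reported and 14 did not, where close meant within 1.5 times for counts, within the SD between replicates for the promoter-to-distal ratio (0.00551), within the SD over peaks for the replicate ratio and within the 95% interval for shares of summits. The number of genes with a promoter peak was 4, but 2 when promoters reached 1 kb in both directions (Junb and Jund) and 1 with the upper 50% of each list by fold (Junb). With that upper 50%, the mean number of peaks in the windows fell to 10 from 38 and the shared ones to 8 from 32. The promoter-to-distal ratio of fold, 0.899, was 1.62 with the upper 50% (2 against 6 peaks), 1.06 with a reciprocal overlap of 50%, 0.88 with windows of 50 kb, 1.03 with -log10 p, 0.638 with the 1 kb promoters and 0.776 with distal peaks outside every promoter. With a replicate left out, the ratio was taken over all peaks of the remaining list, shared or not. It was then 0.976 without replicate 1 (6 against 30 peaks) and 0.941 without replicate 2 (6 against 34). The 0.899 used shared peaks alone (6 against 26), so the peak set differs too. The ratio was averaged over the replicates after both versions had been seen, and from the medians of the mean fold, an alternative added after seeing the data, it was 0.946. Its direction therefore depends on the setting. With the longer consensus GCCNNNGGC, the genes with a match at a promoter summit went from 3 to 1 (Jund) and the share of summits with a match from 78.1% to 25% at replicate 1 summits. At replicate 2 summits the longer match was at promoter peaks of Fos and Junb and not of Jund, and at 21.9% of the 32 summits. Why these values moved was not tested, beyond the fewer peaks that the stricter settings keep. No paired analysis was possible because the result comes from no test and there is 1 ChIP group.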

Other observations

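Lists of genes related to AP-1 were counted in the same way, and pairing with Fos or Jun was not checked here. Among 14 bZIP genes listed as dimer partners, 5 had a shared promoter peak, where 17.0% of all protein-coding genes did. They were Atf7 (mean fold 8.63 ± 0.189), Atf2 (5.89 ± 1.48), Mafk (4.05), Jdp2 (3.29 ± 0.387) and Creb1 (3.14 ± 0.386). The Atf2 summit lay 28966 bp, the Mafk summit 5518 bp and the Creb1 summit 1046 bp downstream of the 5′ end of the gene, so these peaks were counted as promoter peaks through later annotated TSSs. Among 12 other immediate early genes it was 6, with Cyr61 at 7.85, Myc at 5.69, Egr1 at 5.21, Ier2 at 4.39, Egr3 at 3.45 and Ier3 at 3.12. These folds were below the 15.0 of the Junb peak at -2.5 kb, while Egr3 and Ier3 each had 10 shared peaks in their windows, as Junb did. The lists are short and were chosen with results of these data known, so the counts are descriptions.

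The 250 bases upstream of the 5′ end held GCCNNNGG in 6 of the 7 AP-1 subunit genes (not Jund), where 51.2% of all protein-coding genes did, and the control CGGNNNCG in 4, where 32.6% did. Fosb, Fosl1 and Jun, which have no promoter peak, are among the 6. The AP-1 letters, TGACGTCA and the CArG box were in none of the 7, beside 3.85%, 1.91% and 1.34% of all protein-coding genes. At background shares this low, a count of none in 7 genes is near the background. Only exact letters in these 250 bases were searched, so variant sites and sites farther upstream were not counted.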
